A study of Homo sapiens with 27 samples.

Results

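MKN-45, a gastric cancer cell line, was given SGX-523 at 1 uM for 24 h, and its expression profile was compared with that of MKN-45 cells given DMSO. SGX-523 is a selective small-molecule inhibitor of the MET kinase, and DMSO is its solvent. The comparison was defined by sample title and uses 6 of the 27 arrays of the series, 3 labelled SGX-523 24 h and 3 labelled control. MKN-45 is 1 established line that the study describes as addicted to MET, and the title of the series names MET amplification. No other allele or agent is stated for any group. Titles mark the 3 arrays of each group as biological replicates, and no time is stated for the DMSO arrays. Beside this comparison, the series holds MKN-45 at 48 h, EBC-1, a non-small cell lung cancer line also described as addicted, and HCC827, a lung line with activated MET that is described as not dependent on it. These had the same dose of SGX-523 for 24 h or 48 h, or DMSO, with 3 arrays each.

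MET is the receptor tyrosine kinase for hepatocyte growth factor (HGF). When active, it recruits the adaptors GRB2 and GAB1, and through them drives the RAS to ERK cascade and the PI3K to AKT pathway. ERK activity induces early transcription factors such as FOS and EGR1 and its own inhibitors, the DUSP phosphatases and Sprouty proteins, while AKT keeps the FOXO transcription factors out of the nucleus. In MET-amplified gastric cancer cells both routes commonly depend on the one receptor.

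Epithelial markers and most gut markers were measured in this line, as were some markers of other cell types. All 9 epithelial markers were measured above the filter described below, as were 10 of the 14 gastric and intestinal markers with a probe set of their own in the annotation used. CDX1, CLDN18, GKN1 and PGC did not pass it, and HNF4A was not measured here. Of the markers of other cell types that had a probe set, 3 of 6 lung markers passed (NKX2-1, SFTPC and NAPSA). So did 1 each of 3 squamous (KRT5), 7 fibroblast (PDGFRB), 5 leukocyte (CD68), 4 endothelial (VWF) and 1 erythroid (HBB). Passing this filter does not establish the identity of a cell. The summed log2 level of the epithelial markers was 96.7 to 97.0 on SGX-523 24 h and 99.4 to 99.8 on DMSO arrays, with 5 markers called higher and 4 lower. That of the gastric and intestinal markers was 101.1 to 102.1 and 103.6 to 104.1, with 5 called in each direction. That of the fibroblast markers was 27.8 to 28.1 on SGX-523 24 h and 26.3 to 26.8 on DMSO arrays, with PDGFRB called higher, and that of the leukocyte markers 18.7 to 19.7 and 18.8 to 19.8. Within the 6 arrays, replicates correlated at r = 0.9958 to 0.9972 over all probe sets, and SGX-523 24 h with DMSO arrays at 0.9625 to 0.9648. Array medians lay between 5.06 and 5.14 on the deposited log2 scale. The 45 external control probe sets, which measure added bacterial RNA, were higher on the SGX-523 24 h arrays by a median of 0.349 log2, with 0.439 for the 27 polyadenylated and 0.328 for the 18 hybridization controls. Of the genes called higher, 1137 rose by less than 0.349. The log2 difference between the 3 prime and 5 prime probe sets of ACTB was 3.66 to 3.7 on SGX-523 24 h and 3.47 to 3.63 on DMSO arrays, and that of GAPDH was 0.34 to 0.46 and 0.29 to 0.39. The part of the external control and 3 prime to 5 prime shifts in the results was not tested. Counts with each array centred on its median are given below. The number of arrays limits the precision.

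Most of the measured transcriptome differed after 24 h of SGX-523. Each gene was represented by 1 probe set, required to be at or above the array median in 3 or more of the 9 MKN-45 arrays, and 11211 genes were tested with limma. A gene was called at a Benjamini-Hochberg adjusted p under 0.05, taken across these 11211. With SGX-523, 8149 genes were called (72.7%): 4566 were higher (40.7% of those tested) and 3583 lower (32.0%). At least 2-fold changes were seen in 1024 of the higher (9.13%) and 857 of the lower genes (7.64%). At 8-fold or more there were 56 rises and 77 falls, and at 16-fold or more 17 rises and 14 falls. The median log2 difference was 0.066 over all genes, the quartiles were -0.31 and 0.47, and the median standard error was 0.078. The SGX-523 24 h arrays lay wholly above or below the DMSO arrays in 75.3% of genes, and 224 called genes had arrays that overlapped. Several probe sets passed the filter for 1051 of the genes called at least 2-fold, and in 1023 of these all of them moved to the same side. With each array first centred on its median, 8054 genes were called, 4181 higher and 3873 lower. At least 2-fold rises then numbered 931 and falls 916, so the excess of rises was smaller with centring. With quantile normalization, 4492 genes were called higher and 3626 lower. At least 2-fold rises then numbered 1011 and falls 864.

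**Figure D1:**
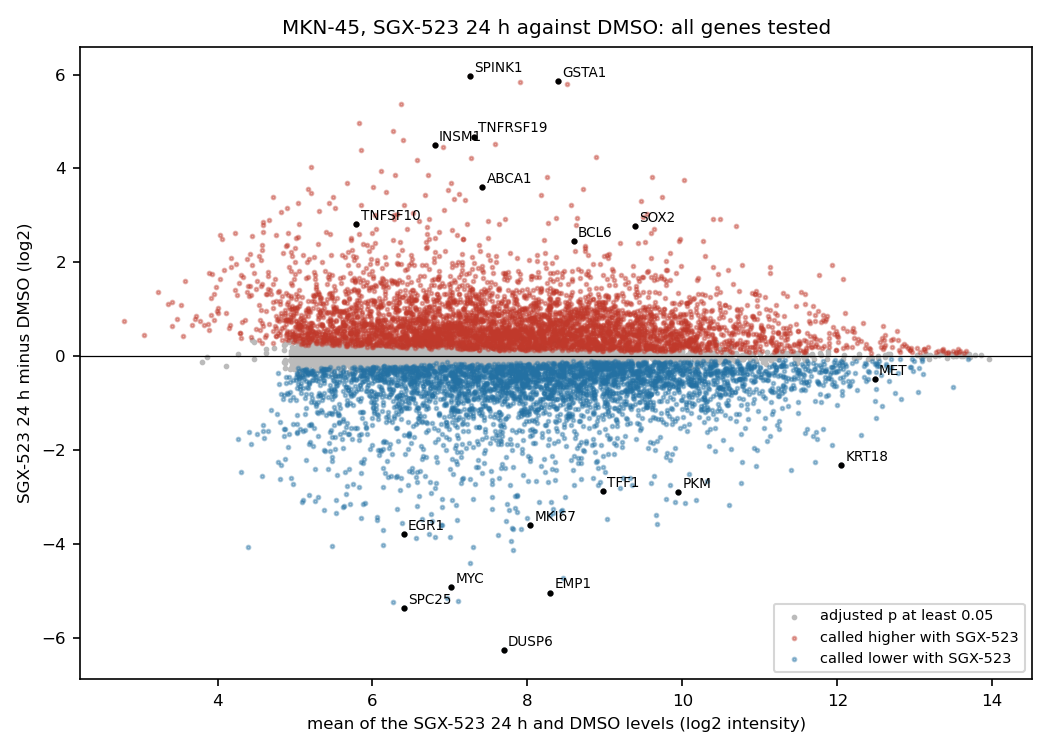
Each point is 1 of 11211 genes in MKN-45. The x axis is the mean of the SGX-523 24 h and DMSO levels in log2 intensity, and the y axis is SGX-523 24 h minus DMSO in log2 units. Called genes are coloured by direction. DUSP6 (-6.26) and SPINK1 (5.97) mark the extremes, and MET lies at -0.49.

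The transcript of the drug's target was lower with SGX-523. MET read 12.24, 12.19 and 12.29 (log2 intensity) on the SGX-523 24 h arrays, against 12.6, 12.78 and 12.8 on the DMSO arrays. All 3 treated arrays were lower, by 0.49 on the log2 scale for the brightest probe set (SE 0.069, adjusted p = 6.72e-07). All 6 MET probe sets were lower, with log2 differences of -0.49 and -0.41 on the brightest pair and -1.17 to -0.86 on the other 4. MST1R, which encodes the related receptor RON, fell by 1.07. HGF, the ligand gene, did not pass the filter.

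Among the 25 genes of MET, RON, their ligands, processing enzymes and adaptors, 20 were tested, of which 12 were called higher and 5 lower, with a median log2 difference of 0.34. CBLB, a ubiquitin ligase that acts on receptor tyrosine kinases, read 8.83, 8.73 and 8.79 with SGX-523 and 7.08, 6.96 and 7.05 with DMSO, a difference of 1.75 ± 0.073 (log2 ± SE, n = 3 per group, limma adjusted p = 1.15e-16). The exchange factors that load RAS with GTP, SOS1 and SOS2, rose by 1.02 and 1.31, and the docking proteins GAB1 and GAB2 by 0.99 and 1.02. PTPN11, which encodes the phosphatase SHP2 that carries the signal to RAS, fell by 0.88. GRB2, the adaptor that binds SOS, was at -0.12 and was not called. The SOS and GAB genes were thus higher, while the receptor itself and SHP2 were lower. Of all genes tested, 40.7% were called higher and 32.0% lower. The list median was close to the 0.349 by which the external controls were higher.

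The inhibitors that ERK induces against itself were lower with SGX-523. Of 21 ERK phosphatase, Sprouty and SPRED genes, 17 were tested: 11 fell, 8 of them at least 2-fold, and 3 rose (median -0.94). DUSP6, the phosphatase that removes the activating phosphates of ERK in the cytoplasm, read 4.61, 4.59 and 4.49 with SGX-523, against 10.87, 10.81 and 10.8 with DMSO. Its difference of -6.26 ± 0.078 was the largest fall of any gene that met the rule for named genes, 76.8-fold on the scale of intensities, and its 4 probe sets lay between -6.51 and -5.87. DUSP4, a nuclear phosphatase of ERK, read 6.98, 7 and 6.97 with SGX-523 and 10, 10.03 and 9.93 with DMSO (-3.00 ± 0.07). SPRED2, SPRY4, SPRED1, SPRY1 and SPRY2, which block the activation of RAS or RAF, fell by 2.71, 2.58, 2.15, 2.12 and 2.02. The 3 members that rose were DUSP1 (1.52), DUSP10 (1.63) and DUSP16 (0.49), all phosphatases known to act on JNK and p38. ERRFI1, which encodes an inhibitor of the EGF receptor, fell by 1.66.

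Early response genes went both ways. EGR1, a zinc finger factor induced by growth factors, read 4.54, 4.16 and 4.82 with SGX-523, against 8.33, 8.27 and 8.29 with DMSO (-3.79 ± 0.14, adjusted p = 1.22e-17). Of its 4 kept probe sets, 1 was at -0.03. FOS fell on all 4 of its probe sets, but the sizes differed widely: -1.97 on the brightest over all MKN-45 arrays and -6.77, -5.24 and -2.74 on the others. The probe set at -6.77 read 3.68, 3.16 and 3.01 with SGX-523, against 9.99, 9.94 and 10.24 with DMSO. JUN, by contrast, read 10.5, 10.65 and 10.5 with SGX-523 and 8.88, 8.91 and 8.88 with DMSO (1.66 ± 0.059). The other AP-1 subunit genes also differed in direction, with FOSL1 at -1.62, JUNB at -0.33, FOSL2 at 1.78 and ATF3 at 1.01. Over the 27 tested of 32 immediate early genes, 16 fell and 6 rose (median -0.34). The antiproliferative gene BTG1 rose most among them (2.19), and PHLDA1 (-2.55) and IER3 (-2.42) fell after EGR1.

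Falls among the ETS factors were deep but few. ETV5, a PEA3-family activator, read 3.79, 3.67 and 3.48 with SGX-523 and 8.91, 8.88 and 8.83 with DMSO (-5.23 ± 0.16). ETV1 read 4.23, 4.8 and 4.46 with SGX-523 and 9.71, 9.68 and 9.72 with DMSO (-5.21 ± 0.13). The third PEA3 gene, ETV4, fell by 2.39, so all 3 members of that subfamily were lower on every array. Of the 18 ETS genes tested, 5 fell and 8 rose, against 32.0% and 40.7% of all genes tested. Only ETV6 rose at least 2-fold (1.02). Other targets known to follow growth factor signals fell beside the PEA3 genes. EMP1, a membrane protein gene, was at 5.84, 5.77 and 5.72 with SGX-523, against 10.8, 10.78 and 10.86 with DMSO (-5.03 ± 0.077). EPHA2, an ephrin receptor gene, fell by 3.35 and HBEGF, which encodes a ligand of the EGF receptor, by 2.57.

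**Figure D2:**
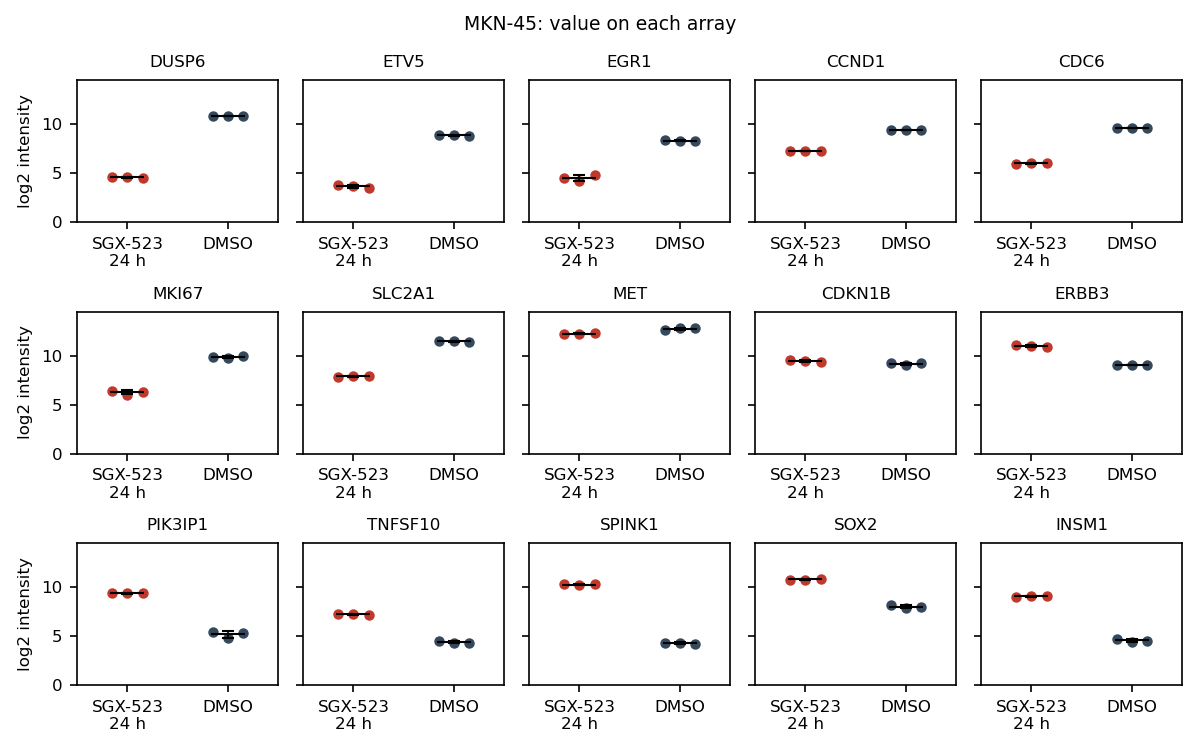
Each panel shows 1 gene, with log2 intensity on the y axis, the 3 SGX-523 24 h arrays on the left and the 3 DMSO arrays on the right. Bars give the mean and SD (n = 3). In DUSP6, ETV5, EGR1, CCND1, CDC6, MKI67, SLC2A1 and MET the SGX-523 arrays lie below the DMSO arrays, and in the remaining genes they lie over them.

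The promoter of EGR1 illustrates a control element of immediate early genes, the CArG box bound by serum response factor. Its 300 bases from 250 before to 50 after the transcription start (RefSeq, GRCh38.p14, chr5:138465229-138465528, plus strand) hold 2 CArG boxes, in capitals, that begin 105 and 83 bases before the start.
EGR1: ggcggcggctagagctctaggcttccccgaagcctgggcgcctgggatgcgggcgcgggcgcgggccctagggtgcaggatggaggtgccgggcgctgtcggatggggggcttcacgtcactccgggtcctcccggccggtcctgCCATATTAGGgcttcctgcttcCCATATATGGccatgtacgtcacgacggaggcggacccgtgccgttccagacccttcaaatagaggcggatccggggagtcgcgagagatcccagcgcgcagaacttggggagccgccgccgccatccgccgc
Among 22 immediate early genes with a promoter in the table, 2 held a CArG box on either strand (9.09%). The share was 1.29% of all 27305 promoters and 1.02% of those of tested genes. Among genes called at least 2-fold, it was 1.16% of those that fell and 1.56% of those that rose. Absence from this window says nothing of elements elsewhere.

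MYC, the transcription factor gene that drives growth and biosynthesis, fell more than any other member of its network. It read 4.54, 4.42 and 4.71 with SGX-523 and 9.51, 9.4 and 9.51 with DMSO (-4.92 ± 0.082, 30.2-fold). Of 12 tested members, 6 rose and 3 fell, the other falls being MXD1 (-0.62) and MLX (-0.34). The largest rises were those of MLXIP, the sugar sensor MondoA (2.77), MYCL, a MYC paralogue (2.47), and MXD4, a repressor that competes for MAX (1.81). MLXIP read 12.06, 12.1 and 12.08 with SGX-523, against 9.36, 9.26 and 9.31 with DMSO. MAX, the shared partner, was at 0.11 and was not called.

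Cyclins that start the cell cycle fell, and some of their inhibitors rose. CCND1, the ERK-responsive cyclin D1 gene, read 7.24, 7.26 and 7.28 with SGX-523, against 9.37, 9.36 and 9.42 with DMSO (-2.12 ± 0.083). The cyclin E genes CCNE2 and CCNE1 fell by 3.20 and 2.45, and CDC25A, the phosphatase gene that activates CDK2, by 2.24. CDKN1C, the p57 inhibitor gene, rose by 1.80 and CDKN1A, the p21 gene, by 0.70. CDKN1B, the p27 gene, read 9.52, 9.46 and 9.3 with SGX-523 and 9.23, 9.02 and 9.21 with DMSO, a rise of only 0.27 ± 0.069 (adjusted p = 0.00105). It was not called when all 27 arrays were fitted together (adjusted p = 0.0652). CCND2 rose by 1.08, opposite to CCND1 and CCND3 (-0.79), and CDK4 was not called (-0.06). In the list of 30 G1 genes, 27 were tested, with 16 lower and 8 higher (median -0.79).

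DNA replication genes fell nearly as a block. Of 47 genes, 46 were tested and 42 fell, 33 of them at least 2-fold, while 2 rose (median -1.58, against 0.066 over all genes). CDC6, which loads the replicative helicase, read 5.89, 6.05 and 5.99 with SGX-523 and 9.63, 9.61 and 9.64 with DMSO (-3.65 ± 0.08). MCM10 fell by 3.87, the GINS subunit gene GINS2 by 3.45 and the sliding clamp gene PCNA by 1.78. The 2 genes that rose were ORC4 (0.17) and GMNN (0.48). GMNN encodes geminin, the inhibitor of CDT1 that blocks renewed licensing, and read 10.9, 10.88 and 10.93 with SGX-523, against 10.49, 10.42 and 10.37 with DMSO. Of the enzymes that supply deoxynucleotides, 8 of 10 tested fell, led by the ribonucleotide reductase subunit RRM2 (-4.12), thymidine kinase TK1 (-3.26) and thymidylate synthase TYMS (-3.12). The exception that rose was RRM2B (0.35), the p53-inducible subunit.

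Every tested gene of the mitosis list fell. There were 53 of 54 such genes, 48 of them at least 2-fold lower, with a median of -2.97. SPC25, a subunit of the NDC80 complex that ties kinetochores to microtubules, read 3.92, 3.58 and 3.66 with SGX-523 and 9.12, 9.08 and 9.07 with DMSO (-5.37 ± 0.13). MKI67, the proliferation antigen gene, read 6.39, 6 and 6.32 with SGX-523, against 9.83, 9.76 and 9.92 with DMSO (-3.60 ± 0.14). CDK1, the mitotic kinase gene, fell by 3.38, CCNB1 by 2.69, and the anaphase activator CDC20 by 3.27, and FOXM1, a factor that drives these genes, was at -3.42. PLK1 (-1.02), SPC24 (-0.56) and CDC25B (-0.38) were among the members that fell least. Of the 25 largest falls in all, 8 belong to this list. Fewer cells in cycle and less RNA per cell cannot be told apart in these bulk samples.

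The 2 groups carry different short elements near their transcription starts. The first pair of promoters below are of mitosis genes that fell more than 8-fold, with the element TTTGAA, known as the cell cycle genes homology region (CHR), and the CCAAT box in capitals on either strand. The second pair are of replication genes, with the E2F elements TTTCCCGC or TTTGGCGC and the CCAAT box in capitals. All are 300 bases long, from 250 before to 50 after the start, from RefSeq on GRCh38.p14.
SPC25: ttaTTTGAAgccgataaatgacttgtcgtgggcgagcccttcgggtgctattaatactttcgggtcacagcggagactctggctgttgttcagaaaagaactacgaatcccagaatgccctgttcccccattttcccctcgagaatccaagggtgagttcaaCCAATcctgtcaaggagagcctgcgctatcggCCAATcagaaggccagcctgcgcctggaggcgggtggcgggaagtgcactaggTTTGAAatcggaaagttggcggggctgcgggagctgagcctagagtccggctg
CDC20: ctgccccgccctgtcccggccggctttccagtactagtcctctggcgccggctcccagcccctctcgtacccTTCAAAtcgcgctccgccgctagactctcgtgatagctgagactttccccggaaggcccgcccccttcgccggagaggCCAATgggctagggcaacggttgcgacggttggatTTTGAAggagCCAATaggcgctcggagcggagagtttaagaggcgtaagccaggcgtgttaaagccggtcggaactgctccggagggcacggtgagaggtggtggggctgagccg
CDC6: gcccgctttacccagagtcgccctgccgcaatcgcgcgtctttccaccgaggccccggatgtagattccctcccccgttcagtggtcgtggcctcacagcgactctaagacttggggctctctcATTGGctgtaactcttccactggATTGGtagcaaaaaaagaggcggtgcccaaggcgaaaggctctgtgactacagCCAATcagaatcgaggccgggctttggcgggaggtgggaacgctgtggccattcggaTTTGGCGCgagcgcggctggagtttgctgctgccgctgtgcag
PCNA: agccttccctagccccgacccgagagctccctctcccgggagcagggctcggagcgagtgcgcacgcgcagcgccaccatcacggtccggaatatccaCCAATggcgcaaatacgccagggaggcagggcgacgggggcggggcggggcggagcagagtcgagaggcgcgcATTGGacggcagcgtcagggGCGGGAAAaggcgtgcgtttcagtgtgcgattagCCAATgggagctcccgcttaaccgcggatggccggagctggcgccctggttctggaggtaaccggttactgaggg
SPC25 lies at chr2:168890381-168890680 on the minus strand, CDC20 at chr1:43358731-43359030 on the plus strand, CDC6 at chr17:40287629-40287928 on the plus strand and PCNA at chr20:5126573-5126872 on the minus strand. TTTGAA begins 3 bases before the start in SPC25 and 65 bases before it in CDC20, each with a CCAAT box nearby. The E2F element begins 59 bases before the start in PCNA and 7 bases after it in CDC6.

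Promoters were in the table for 47 tested mitosis genes and 41 tested replication genes. TTTGAA occurred in 32 of the 47 mitosis promoters (68.1%) and in 1 of the 41 replication promoters (2.44%), against 9.58% of the promoters of all tested genes and 15.4% of all 27305. The E2F elements occurred in 16 of 41 replication promoters (39.0%) and in 2 of 47 mitosis promoters (4.26%), against 3.83% of tested genes and 2.31% of all. CCAAT was common to both, in 68.1% and 56.1%, against 37.0% of tested genes and 35.7% of all. Across every gene called at least 2-fold, TTTGAA was in 131 of 691 promoters of genes that fell (19.0%) and 86 of 836 of genes that rose (10.3%). The shares for E2F elements were 7.53% of genes that fell and 2.03% of genes that rose. These are matches of letters within this window, not bound sites.

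Biosynthesis and fuel genes were lower as well. In the glycolysis list 20 of 22 tested genes fell, 16 at least 2-fold, and none rose (median -1.69). SLC2A1, the glucose transporter gene, read 7.86, 7.91 and 7.88 with SGX-523, against 11.47, 11.51 and 11.42 with DMSO (-3.58 ± 0.077). PKM, the pyruvate kinase gene, read 8.49, 8.47 and 8.52 with SGX-523 and 11.43, 11.36 and 11.39 with DMSO (-2.90 ± 0.055). HK2, the first enzyme of the pathway, was at -3.11 by its brighter probe set and at -0.56 by the other. LDHA (-1.68), ENO1 (-2.34) and PGK1 (-2.25) fell too, and ALDOC (-0.04) and PFKM (0.07) were not called. Hypoxia-inducible genes outside the pathway were called lower in 11 of 17 cases and higher in 5 (median -0.76), with EGLN3 at -2.19 and BNIP3 at -1.97, while VEGFA was at 0.79.

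Of the 21 tested genes for serine, one-carbon and nucleotide synthesis, 19 fell and 2 rose (median -1.30). CTPS1, CTP synthase, read 6.61, 6.74 and 6.57 with SGX-523, against 9, 9.02 and 8.98 with DMSO (-2.36 ± 0.071). PAICS, of purine synthesis, fell by 2.07 and PSAT1, of serine synthesis, by 1.76. The glycine cleavage gene AMT rose by 1.63 and IMPDH2 by 0.19. Ribosome biogenesis genes fell in 27 of 30 cases by smaller amounts (median -0.88), led by LYAR (-2.23) and NOP16 (-1.64), and only NOB1 rose (0.22). Amino acid transporters were mixed, with 10 of 20 lower and 4 higher. SLC7A1 fell by 2.30, and SLC7A5 by 1.97 on its brighter while its dimmer probe set was at 0.02. Ornithine decarboxylase (ODC1, -1.05) and AMD1 (-1.86) of polyamine synthesis fell.

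Lipid genes moved in both directions, with more falls than rises. SCD, the desaturase gene, fell by 1.55 and the mevalonate pathway gene FDPS by 1.25. Of 28 tested cholesterol and fatty acid genes, 17 fell, 6 of them at least 2-fold, 4 rose and 7 were not called (median -0.33). Over all genes tested, 32.0% were called lower and 40.7% higher. The largest rises in that list were of exporters and of a gene known to lower the LDL receptor. ABCA1, which exports cholesterol, read 9.27, 9.25 and 9.13 with SGX-523 and 5.55, 5.51 and 5.8 with DMSO (3.60 ± 0.08). ABCG1 rose by 1.67 and MYLIP by 1.04. Oxidative phosphorylation genes were lower in 25 of 30 cases and higher in 2, with a median of only -0.30.

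**Figure D3:**
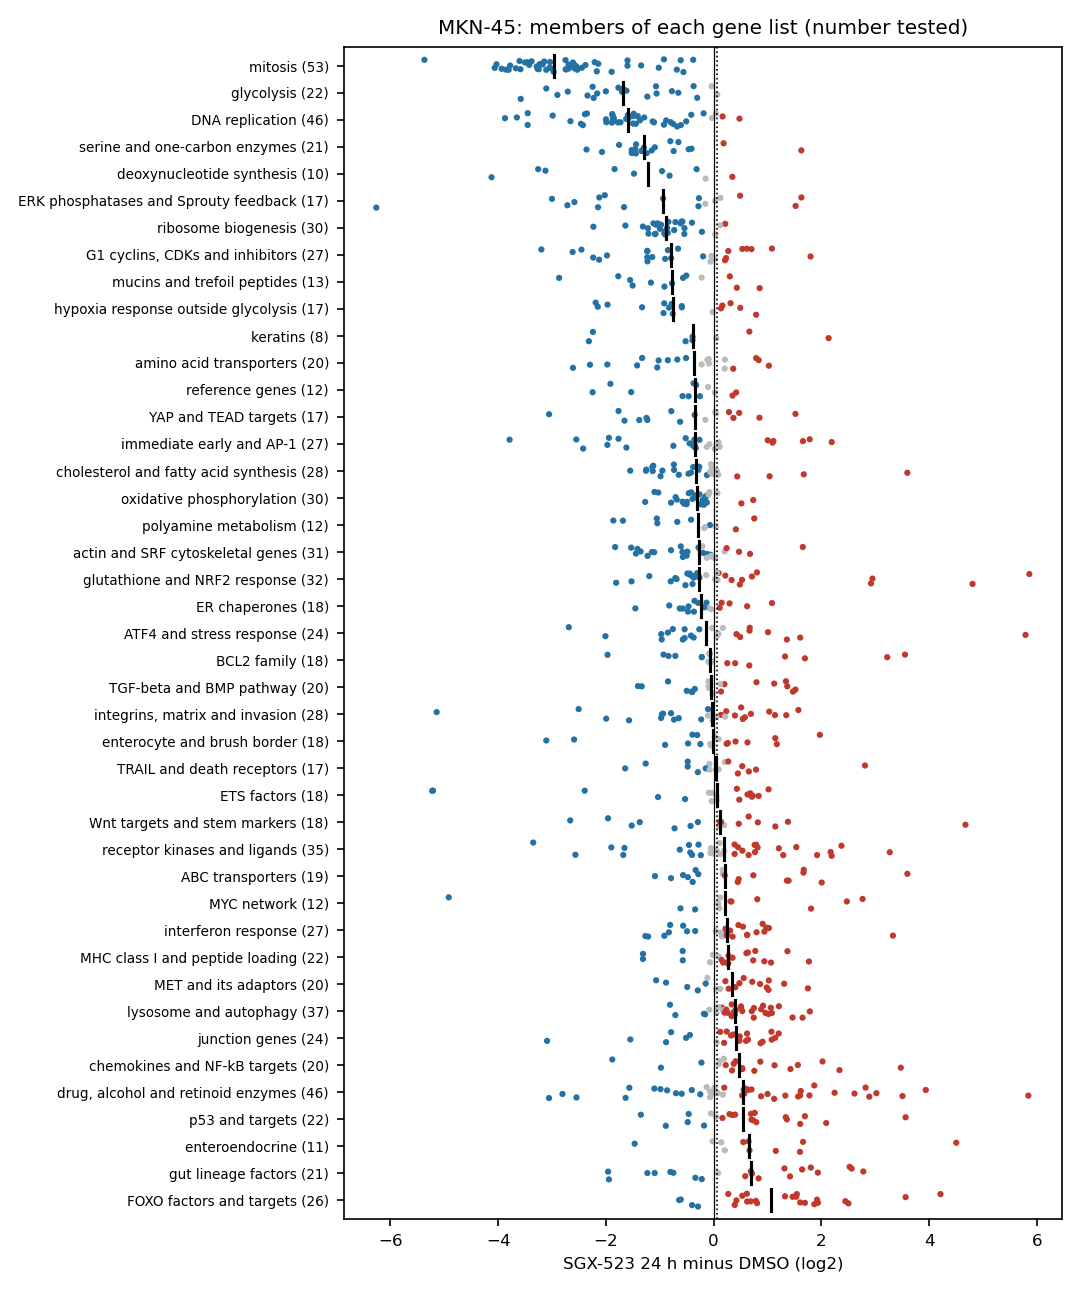
Each point is 1 tested gene of a list in MKN-45, placed by SGX-523 24 h minus DMSO in log2 units. Red genes were called higher, blue genes lower, and grey genes were not called. Black bars give the list medians, from -2.97 for mitosis to 1.07 for FOXO factors and targets, and the dotted line gives the median of all genes (0.066). A gene may be in several lists.

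The list of FOXO factors and targets had the highest median of the 43 lists (1.07), with 22 of 26 tested genes higher and 4 lower. PIK3IP1, an inhibitor of PI3K, read 9.35, 9.43 and 9.35 with SGX-523 and 5.45, 4.77 and 5.27 with DMSO (4.21 ± 0.1), although its 7 probe sets ranged from 0.84 to 4.21. TP53INP1 rose by 3.56, DEPP1 by 2.5, the repressor gene BCL6 by 2.45 and TXNIP, an inhibitor of glucose uptake, by 1.94. FOXO3 itself rose by 1.54, while FOXO1 fell by 0.64. The receptor genes of the list, ERBB3 and INSR, rose. ERBB3, which signals to PI3K, read 11.05, 10.94 and 10.86 with SGX-523, against 9.03, 8.99 and 9.06 with DMSO (1.92 ± 0.044), and INSR, the insulin receptor gene, rose by 1.53. The insulin receptor substrate genes IRS1 and IRS2 fell by 0.29 and 0.61.

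Other receptor and ligand genes showed no common direction. Of 35 tested, 17 were called higher and 11 lower, against 40.7% and 32.0% of all genes tested. EGFR read 7.55, 7.55 and 7.53 with SGX-523, against 8.22, 8.16 and 8.12 with DMSO (-0.63 ± 0.055). AXL, a receptor often discussed as a bypass route, fell by 1.66, while GAS6, its ligand gene, rose by 2.17 and the related MERTK by 1.29. FGF9, a fibroblast growth factor gene, was at 7.07, 6.62 and 6.34 with SGX-523 and 3.64, 3.34 and 3.25 with DMSO on its brighter probe set (3.27 ± 0.16), and at 0.68 on the other. FGFR2 rose by 1.21 and FGFR3 by 0.82. PDGFA rose by 2.37 on its brightest probe set, with the 3 between 1.92 and 2.69. EPHA4 was higher on both probe sets, by 2.19 and 0.62.

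The BCL2 family had no common direction: 7 of 18 tested genes rose and 7 fell, with a median of -0.07. Over all genes tested, 40.7% were called higher and 32.0% lower. The BH3-only members themselves differed. BBC3, the PUMA gene, read 9.66, 9.47 and 9.82 with SGX-523 and 7.9, 7.99 and 7.97 with DMSO (1.69 ± 0.1). BCL2L11, the BIM gene, rose by 1.33, with its 6 probe sets between -0.06 and 1.75, and BMF rose by 3.22 (0.4 to 3.22 over 3 probe sets). MCL1 was at -0.08, with its 5 probe sets between -0.27 and 0.27, and BCL2L1 was not called (-0.03). BNIP3 fell by 1.97 and PMAIP1, the NOXA gene, by 0.84. TNFSF10, the TRAIL ligand gene, read 7.21, 7.2 and 7.19 with SGX-523, against 4.51, 4.33 and 4.32 with DMSO (2.81 ± 0.057). Its receptor gene TNFRSF10A fell by 1.26 and TNFRSF10B was not called (0.05). Among p53 targets 15 of 22 rose and 5 fell, with TP53I3 at 2.09 and SESN1 at 1.61.

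The genes that rose most included some of digestive secretion, detoxification and stress. SPINK1, the trypsin inhibitor of the pancreas and stomach, read 10.29, 10.17 and 10.29 with SGX-523, against 4.29, 4.34 and 4.19 with DMSO (5.97 ± 0.082, 62.9-fold). NUPR1, a stress-induced chromatin protein gene, read 11.4, 11.43 and 11.39 with SGX-523 and 5.69, 5.63 and 5.54 with DMSO (5.79 ± 0.079). Besides GSTA1, GSTA2 and UGT2B15, described below, the 25 largest rises included the endolysosomal gene ELAPOR1 (4.60) and the autophagy gene TP53INP2 (4.52). The neuroserpin gene SERPINI1 (4.38), the glycogen-targeting subunit PPP1R3C (4.17), the lipase inhibitor G0S2 (3.75) and the pancreatic elastase CELA3A (3.69) were among them too. So were ANO3 (5.37), TMED6 (4.98), TNFRSF19 (4.68), INSM1 (4.51) and COXFA4L3 (4.46). MTURN (4.25), PIK3R3, a regulatory subunit of PI3K (3.82), and the Notch ligand DLL1 (3.87) also rank among the 25, but their probe sets spread from 1.75, 1.32 and -0.22 upwards. In DMSO, 15 of these 25 genes had a mean below the array medians. Of the 25 largest falls, 13 had an SGX-523 mean below them.

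Enzymes that conjugate or oxidise foreign and dietary compounds were raised in selected families. GSTA1, an alpha-class glutathione transferase, read 11.22, 11.39 and 11.38 with SGX-523, against 5.62, 5.36 and 5.41 with DMSO (5.86 ± 0.11). GSTA2 and GSTA4 rose by 4.81 and 2.95, whereas GSTP1 (-0.37), GSTO1 (-0.69) and the microsomal MGST1 (-0.80) fell. UGT2B15, a glucuronosyltransferase, was at 10.83, 10.85 and 10.78 with SGX-523 and 4.96, 5.02 and 4.95 with DMSO (5.84 ± 0.095), and UGT2A3 rose by 3.94. Signals of GSTA1 and GSTA2, and of UGT2B genes, may include RNA of close copies of each gene. Alcohol and retinal dehydrogenases ADH1C (2.62) and ALDH1A1 (3.02) rose, while ALDH1A2 (-2.55) and DHRS9 (-1.63) fell. The cytochromes CYP1A1 and CYP2S1 went opposite ways, with 3.51 and -3.06. PTGS2, the inducible prostaglandin synthase gene, read 7.77, 7.66 and 7.93 with SGX-523, against 10.59, 10.59 and 10.6 with DMSO (-2.81 ± 0.097). In all, 25 of 46 tested genes of this list rose and 12 fell (median 0.54), against 40.7% and 32.0% of all genes tested. In the separate glutathione and NRF2 list 17 of 32 fell and 11 rose, so the alpha-class rise was not shared by NQO1 (-0.31) or GCLM (-0.52).

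Lineage genes of the gut went both ways, with more rises than falls. SOX2, a foregut factor gene, read 10.76, 10.76 and 10.81 with SGX-523, against 8.15, 7.84 and 8.01 with DMSO (2.78 ± 0.13, and 1.69 on its other probe set). CDX2, the intestinal factor gene, rose by 1.94, FOXA1 by 2.53 and NR5A2 by 2.56. SOX9, a progenitor factor gene, read 8.94, 8.89 and 8.93 with SGX-523 and 10.9, 10.9 and 10.85 with DMSO (-1.96 ± 0.042). KLF4 and KLF5 fell by 1.94 and 0.75. In all, 12 of 21 tested factors rose and 8 fell (median 0.69), with 8 at least 2-fold higher and 4 at least 2-fold lower. Of all genes tested, 40.7% were called higher and 32.0% lower, with 9.13% and 7.64% at least 2-fold. LGR5, the stem cell receptor gene, fell by 1.52 and DKK1, a secreted Wnt inhibitor gene, by 2.66, while TNFRSF19 rose by 4.68 and ASCL2 by 1.38.

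Several genes of secretory and surface products fell, and some rose. TFF1, the gastric trefoil peptide gene, read 7.49, 7.43 and 7.72 with SGX-523, against 10.56, 10.37 and 10.31 with DMSO (-2.87 ± 0.11). Of 13 tested mucin and trefoil genes 9 fell and 3 rose (median -0.77), with MUC13 at -1.50 and MUC1 at 0.85. CEACAM6, an adhesion molecule gene, read 8.36, 8.33 and 8.36 with SGX-523 and 11.47, 11.44 and 11.47 with DMSO (-3.11 ± 0.053). REG4, a regenerating family gene, fell on all 3 probe sets, by 2.59 on the brightest and with the lowest at -5.39. The protease gene DPP4 rose by 1.97.

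Some endocrine genes were higher at 24 h. INSM1, a zinc finger factor that directs neuroendocrine fate, read 9.02, 9.07 and 9.08 with SGX-523, against 4.72, 4.43 and 4.51 with DMSO (4.51 ± 0.099). Of 31 genes in the enteroendocrine list only 11 passed the filter, some through the 48 h arrays alone, and SCG2 fell (-1.47). CHGB, a granule protein gene, rose by 1.66. RFX6 (1.60) and NEUROG3 (1.15) were still below the array medians at 24 h, with SGX-523 means of 4.39 and 3.99, against 2.78 and 2.83 in DMSO. CHGA and the hormone genes of the list did not pass the filter.

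Structural genes of the epithelium also changed. KRT18 read 10.93, 10.88 and 10.88 with SGX-523, against 13.16, 13.25 and 13.22 with DMSO (-2.32 ± 0.035), and its partner KRT8 fell by 2.24, with all 8 probe sets between -2.54 and -2.07. KRT7 rose by 0.66 and KRT15 by 2.14. Of 24 tested junction genes, 17 were called higher and 6 lower, against 40.7% and 32.0% of all genes tested. Their median of 0.42 was close to the 0.349 by which the external controls were higher. CLDN3 (1.21), cingulin CGN (1.08) and occludin OCLN (0.91) rose, and CDH1, the E-cadherin gene, rose by 0.60. CLDN2, a claudin of leaky epithelia, was at 3.82, 3.56 and 3.78 with SGX-523 and 6.69, 6.91 and 6.83 with DMSO (-3.09 ± 0.16). CLDN1 fell by 1.55.

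Genes of matrix turnover and invasion showed both directions, with 12 of 28 lower and 11 higher, against 32.0% and 40.7% of all genes tested. CEMIP, which mediates hyaluronan breakdown, read 4.24, 4.45 and 4.46 with SGX-523, against 9.54, 9.46 and 9.58 with DMSO (-5.14 ± 0.14). HAS3, a hyaluronan synthase gene, fell by 3.67, with 1 of its 2 probe sets at -1.47. The laminin receptor subunit ITGB4 fell by 2.51 and the urokinase receptor PLAUR by 2.0, while TIMP2, an inhibitor of metalloproteinases, rose by 1.57 and LAMB3 by 1.35. Actin-related genes were lower in 19 of 31 cases and higher in 4, with PFN1 at -1.83 and ACTB at -1.53. F3, the tissue factor gene, fell by 3.06 and CCN2 by 1.77, both known targets of YAP, of whose 17 tested targets and partners 9 fell and 5 rose.

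In the immune and lysosomal lists, more genes were called higher than lower. The shares over all genes tested were 40.7% higher and 32.0% lower. List medians were small beside the 0.349 by which the external controls were higher, and the part of that shift in them was not tested. CXCL10, an interferon-inducible chemokine gene, read 6.8, 6.75 and 7.28 with SGX-523, against 3.52, 3.38 and 3.51 with DMSO (3.48 ± 0.16), and CCL20 and the NF-kB target TNFAIP2 rose by 2.02 and 2.34. In that list 14 of 20 genes rose and 3 fell, with LIF (-1.88) and CXCL8 (-0.98) among the falls. GBP2 rose by 3.33, but the interferon list as a whole was mixed, with 16 of 27 higher and 8 lower (median 0.24). Most antigen presentation genes rose, 15 of 22, with 4 lower and a median of 0.27. HLA-E read 10.79, 10.8 and 10.81 with SGX-523 and 9.02, 9.05 and 9.01 with DMSO (1.77 ± 0.045). MICB, a ligand of the NK cell receptor NKG2D, fell by 1.31. Of 37 tested lysosome and autophagy genes, 27 were called higher and 4 lower (median 0.39), with WIPI1 at 1.79 and CTSS at 1.65.

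Stress genes did not follow NUPR1. Of 24 tested genes of the ATF4 and stress list 12 fell and 8 rose (median -0.15). STC2 and DDIT4 fell by 2.69 and 2.01, and SESN2 rose by 1.36. Of the 18 ER chaperone genes 11 were called lower and 5 higher, mostly by small amounts (median -0.23), with HSPA5 at -0.13 and DNAJB9 at 1.08. Genes often used as references changed too. HPRT1 fell by 1.92 and ACTB by 1.53, GUSB rose by 0.42, and RPL13A (0.03) and TBP (-0.10) were not called. ABC transporters rose in 10 of 19 cases and fell in 7, with ABCA5 at 2.01 and ABCC3 at 1.67. TGF-beta and BMP pathway genes split, 8 higher and 7 lower of 20, with SMAD3 at 1.37 and TGFBR2 at -1.40. Among Wnt targets and stem markers 8 of 18 rose and 7 fell. These counts stand beside 40.7% called higher and 32.0% called lower over all genes tested.

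The response was then compared with that of EBC-1, the other MET-dependent line, which shares no array with MKN-45. EBC-1 had 7831 called genes (69.9%), with 4108 higher (36.6%) and 3723 lower (33.2%) of the same 11211. These genes and their probe sets were chosen on MKN-45 arrays only. A gene with low signal in EBC-1 could thus be tested there, and a gene measured in EBC-1 alone was left out. Genes higher in both numbered 3013, which is 66.0% of the MKN-45 and 73.3% of the EBC-1 rises, and genes lower in both 2544, which is 71.0% and 68.3% of the falls. In contrast, 480 genes were higher in MKN-45 and lower in EBC-1, and 417 the reverse. The size of the change differed between the lines for 6252 genes (55.8%) by the interaction test in limma, with 3615 more positive in MKN-45 (32.2%) and 2637 more negative (23.5%). Changes of close size were those of ETV5, at -5.23 in MKN-45 and -5.22 in EBC-1, MKI67, at -3.60 and -3.68, and MET, at -0.49 and -0.48. Their differences were -0.01, 0.07 and -0.01, with adjusted p = 0.977, 0.785 and 0.918.

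**Figure D4:**
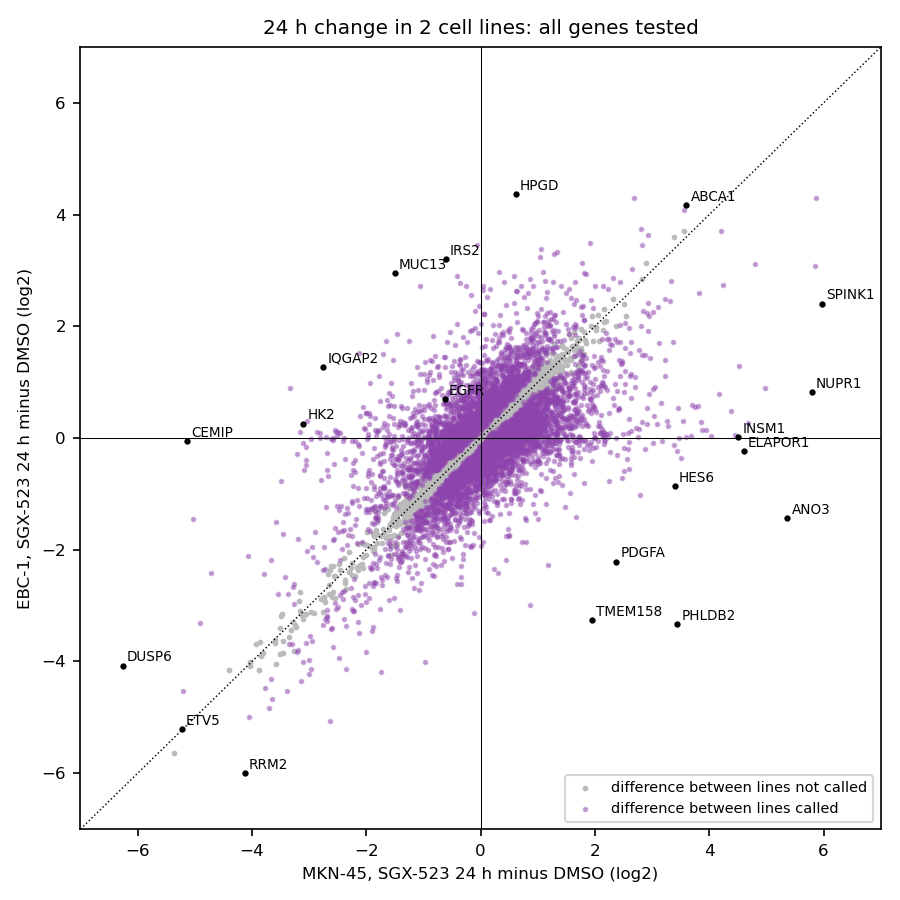
Each point is 1 of 11211 genes, with SGX-523 24 h minus DMSO in MKN-45 on the x axis and in EBC-1 on the y axis, both in log2 units. Purple genes differed between the lines, and the dotted line marks equal change. ANO3 lies at 5.37 in MKN-45 and -1.44 in EBC-1, and MUC13 at -1.50 and 2.96.

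Whole groups leaned to one line. In the glycolysis list 21 of 22 genes were more negative in MKN-45 and 1 more positive, with medians of -1.69 in MKN-45 and -0.77 in EBC-1. HK2 was at -3.11 in MKN-45 and 0.26 in EBC-1 (difference -3.37, adjusted p = 6.78e-20). Ribosome biogenesis genes leaned the other way, with 22 of 30 more positive in MKN-45 and 1 more negative, and medians of -0.88 and -1.60. FOXO factors and targets were more negative in MKN-45 in 15 of 26 cases, with IRS2 at -0.61 in MKN-45 and 3.20 in EBC-1 and CDKN1B at 0.27 and 1.64. Of the genes that rose in MKN-45, the largest differences were ANO3, PHLDB2, which links microtubules to the cell cortex and was at 3.44 in MKN-45 and -3.32 in EBC-1, and TMEM158, at 1.94 and -3.26. PDGFA was at 2.37 and -2.21. The deepest negative differences were CEMIP, whose DMSO mean was 9.53 in MKN-45 and 3.57 in EBC-1 and which changed by -5.14 and -0.06, and MUC13. ADGRF1, IQGAP2, NABP1, HPGD, SERPINB5, EMP1 and AKR1C2 followed. SOX2 at 2.78 in MKN-45 and 0.16 in EBC-1, INSM1 at 4.51 and 0.02 and CXCL10 at 3.48 and -0.01 differed too. Whether low signal in EBC-1 accounts for such small changes there was not tested. EGFR had opposite signs, -0.63 in MKN-45 and 0.69 in EBC-1 (difference -1.32, limma adjusted p = 4.21e-13).

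HCC827 served the study as the line without MET dependence. Its array medians were higher, at 5.71 to 5.73. Replicate 3 of its SGX-523 24 h arrays correlated with the other HCC827 arrays at 0.962 to 0.967, against 0.993 or more among those, so results are given with and without it. At 24 h limma called 1 gene in HCC827 (SOX4, named after its value was seen), 0.00892% of those tested, with 2425 at an unadjusted p under 0.05. Without replicate 3 it called 16, with 726 at an unadjusted p under 0.05. The change in MKN-45 differed from that in HCC827 for 6420 genes (57.3%), 3744 more positive (33.4%) and 2676 more negative (23.9%), and for 7109 without replicate 3. DUSP6 was at -6.26 in MKN-45 and at -0.47 in HCC827 (-0.12 without replicate 3). MYC was at -4.92 and 0.01 (0.06 without it), and SPINK1 at 5.97 and 0.38 (0.46 without it).

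The 48 h arrays were tested against the 24 h arrays directly, since both times share the DMSO arrays. Of 11211 genes 2883 were higher at 48 h than at 24 h (25.7%) and 1726 lower (15.4%), and with all 27 arrays in the fit the total of 4609 (41.1%) became 3014. Changes of at least 2-fold were few, 103 higher (0.919%) and 43 lower (0.384%). RGS4, a regulator of G protein signalling, read 3.08, 2.99 and 3.21 with DMSO, 3.45, 3.89 and 3.88 at 24 h and 8.83, 8.76 and 8.79 at 48 h. Its rise between the times was 5.05 ± 0.15, so nearly all of it came after 24 h. RFX6, an endocrine progenitor factor gene, read 2.75, 2.83 and 2.76 with DMSO, 4.37, 4.27 and 4.51 at 24 h and 7.58, 7.43 and 7.99 at 48 h (3.28 ± 0.15). HEPACAM2 (4.35) and TMEM158 (3.12) rose further as well. RGS4, RFX6, NEUROG3 and NKX2-2 reached the array median on none of the DMSO and 24 h arrays and passed the filter through the 48 h arrays alone, so no count of endocrine genes is given for this comparison.

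Mitosis genes fell further in 39 of 53 cases between the times and rose in 1, with list medians of -2.97 at 24 h and -3.59 at 48 h. TOP2A, which untangles DNA, read 11.25, 11.32 and 11.38 with DMSO, 8.27, 8.31 and 8.23 at 24 h and 6.69, 6.7 and 6.68 at 48 h (-1.58 ± 0.068). CCNB2 and PRIM1 fell by a further 1.64 and 1.61. Of the ERK phosphatase and Sprouty genes, 8 of 17 were higher at 48 h than at 24 h and 1 lower. Of all genes tested, 25.7% were higher and 15.4% lower. The list median against DMSO hardly moved, from -0.94 at 24 h to -0.91 at 48 h. DUSP6 was at -6.26 at 24 h and -5.27 at 48 h against DMSO. ER chaperones were higher at 48 h in 15 of 18 cases. CELA3A, among the largest rises at 24 h (3.69), was lower by 1.19 at 48 h, and TKT, a pentose phosphate enzyme gene, by 1.18.

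**Figure D5:**
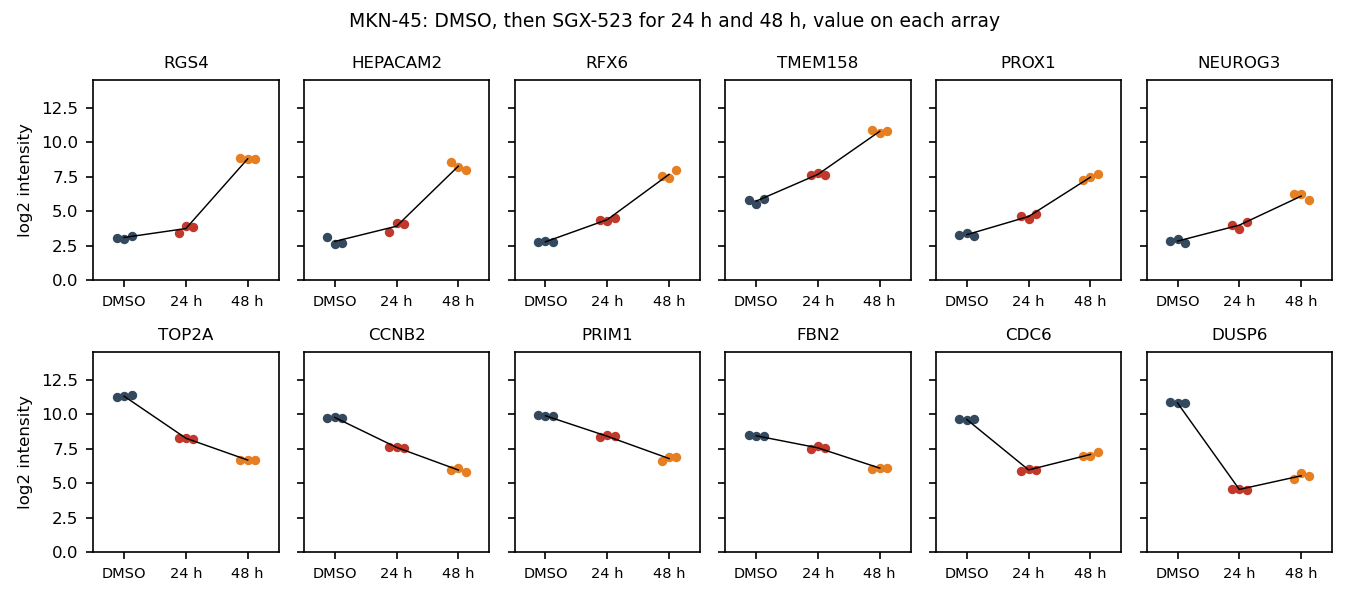
Each panel shows 1 gene in MKN-45, with log2 intensity on the y axis and DMSO, SGX-523 24 h and SGX-523 48 h from left to right. Points are the 3 arrays of each group and lines join the means. RGS4, HEPACAM2 and RFX6 rise mainly between 24 h and 48 h, TOP2A, CCNB2, PRIM1 and FBN2 fall at both steps, and CDC6 and DUSP6 lie lower at 24 h than at 48 h.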

How the data were processed

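Expression was measured on 27 one-colour Affymetrix arrays of total RNA, labelled with a 3 prime kit, per the labels' protocols. The authors deposited a table of log2 values (1.87 to 14.38), one for every probe set on every array. Per the submitters' processing notes the tool was MAS5, with no role stated. How arrays were normalized is not given in these sources. Of 49395 probe sets, 102 were controls, 44988 had 1 gene, 1832 several and 2473 none in the platform annotation, and 44961 matched RefSeq by Entrez ID. Groups were taken from titles, with which the cell line and treatment labels match. The source names of replicates 2 and 3 of the DMSO arrays differ, naming MKN-46 and MKN-47 for MKN-45 and HCC828 and HCC829 for HCC827. A gene that passed the filter below only through a group where it was high had to differ from the others. In all, 422 tested genes reached the array median on no DMSO array and 281 on no SGX-523 24 h array, with 61 on neither.

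Probe sets at or above the array median in 3 or more of 9 MKN-45 arrays were used (26140, with 1 gene for 24041). Each gene was represented by its brightest such probe set over these 9. The deposited log2 values of 18 EBC-1 and MKN-45 arrays were fitted with limma 3.58.1 in R 4.3.3 (6 group means, 12 residual degrees of freedom, eBayes with an intensity trend). The HCC827 comparison used all 27 arrays (9 means, 18 residual degrees of freedom). P-values are two-sided and adjusted by Benjamini-Hochberg within a comparison. Values are log2 differences, ± SE where given, with n = 3. They measure the spread between these arrays only, since nothing says how separate the cultures were.

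Members and the 43 lists were chosen with earlier results of these data known, so list counts are descriptions. Genes named without a list are the 25 largest rises and falls among called genes whose groups do not overlap and whose higher mean exceeds the median of all genes, 10 in each direction for the other comparisons, and MET, HGF and EGFR. Promoters are from RefSeq (GRCh38.p14). Data were simulated for MKN-45 SGX-523 24 h against DMSO over 11211 genes, with 50 genes changed at each fold. Noise was independent for each gene, and no shift of whole arrays was added. Recovery was 56% of genes changed 1.25-fold, 94% of those changed 1.5-fold and 100% at 2-fold and 4-fold. In that setting 4.89% of calls were false, which is not an error rate for the real calls, where far more genes changed. Alternatives were quantile normalization, centring, other filters, no intensity trend, MKN-45 arrays alone, all 27 arrays, a replicate block, the mean of all probe sets, array weights, and each array left out in turn.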

Additional observations from a re-analysis of the deposited data

Results flagged for a closer look

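The 24 h change differed between MKN-45 and EBC-1 for 6252 genes and between MKN-45 and HCC827 for 6420, by the test of the difference itself. Neither comparison shares arrays between its lines. The largest positive differences, MKN-45 minus EBC-1 on the log2 scale, were those of ANO3 (6.81), PHLDB2 (6.76), TMEM158 (5.20), NUPR1 (4.97), ELAPOR1 (4.83), PDGFA (4.59), INSM1 (4.48), TNFRSF19 (4.41), COXFA4L3 (4.40) and HES6 (4.25). In these 10 genes the change was positive in MKN-45, and in EBC-1 it ran from -3.32 for PHLDB2 to 0.82 for NUPR1. The largest negative differences were those of CEMIP (-5.09), MUC13 (-4.46), ADGRF1 (-4.24), IQGAP2 (-4.02), IRS2 (-3.81), NABP1 (-3.78), HPGD (-3.75), SERPINB5 (-3.64), EMP1 (-3.58) and AKR1C2 (-3.52). HPGD, which breaks down prostaglandins, was at 0.61 in MKN-45 and 4.37 in EBC-1, and AKR1C2 at -0.07 and 3.45. Groups of 3 arrays are too small for a test of single outlying arrays.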

How the results depend on the processing

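The call counts stayed within 1.5 times of those reported under every alternative run, apart from 48 h against 24 h in MKN-45, which had 3014 called genes with all 27 arrays in the fit, against 4609. The cause was not tested. That fit includes the spread of HCC827 SGX-523 24 h replicate 3. For SGX-523 24 h against DMSO, leaving out 1 array gave 7848 to 7902 genes and the other alternatives 5915 (stricter filter, 7051 genes tested) to 8803 (no filter, 18132 tested). Replicate numbers did not pair the arrays: same-numbered arrays had residual correlations of 0.08, 0.129 and -0.038, and with the number as a block 8170 genes were called, 4582 higher and 3588 lower. Leaving out 1 array gave 5949 to 6087 for the difference from EBC-1, 4023 to 4272 for 48 h against 24 h and 6057 to 7109 for the difference from HCC827. With 1 array left out, at least 2-fold rises at 24 h against DMSO ran from 1001 to 1066 and falls from 849 to 866. Of 1452 alternative values of 91 named genes, 1451 kept their direction and side of the threshold. The exception was CDKN1B with all 27 arrays (adjusted p = 0.0652). The 91 genes include the 25 largest rises and the 25 largest falls in these same data. For those genes the outcome was largely fixed in advance. Sizes depended on the probe set: with the mean of all probe sets FOS was at -4.18, PIK3IP1 at 1.53, DLL1 at 1.18, and FOS was at -5.24 with the stricter filter. Low signal limits the size of changes in genes near background in 1 group.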
